A study of Mus musculus with 30 samples.

Results

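Fam13a and 7 genes of the insulin signaling pathway (Insr, Irs1, Irs2, Pik3r1, Akt2, Slc2a4 and Foxo1) are described here, 8 of the 41549 genes in the table. Fam13a was chosen by its values in these libraries, which were lower in both LFABP-/- fat depots, so its differences between genotypes in fat are given as a description with no test. The others were chosen for their place in the pathway, with earlier results of these data known. RNA was sequenced from liver and from 2 fat depots, the inguinal white (iWAT) and the interscapular brown (iBAT), of 10 male mice on a C57Bl/6J background. The 5 wild-type (WT) mice were the controls, and the 5 LFABP-/- mice lacked the liver fatty acid-binding protein, a carrier of long-chain fatty acids encoded by Fabp1, in the whole body. From 2 months of age both genotypes ate a diet rich in saturated fat, with 45% of calories as fat, for 12 weeks, and were fasted for 4 h before the tissues were taken. Each mouse gave all 3 tissues, so the 30 libraries form 6 groups of 5, and no group on another diet is part of these data.

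Insulin binds its receptor, INSR, which phosphorylates the docking proteins IRS1 and IRS2. These recruit phosphoinositide 3-kinase, whose regulatory subunit p85α is made from Pik3r1, and the lipid it produces brings AKT2 to the membrane, where AKT2 drives the glucose transporter GLUT4 (Slc2a4) to the surface of fat and muscle cells and keeps the transcription factor FOXO1 out of the nucleus. FAM13A belongs to a family with a RhoGAP domain, and variation at its locus has been tied to body fat distribution and insulin sensitivity.

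The promoters of Fam13a, Irs1 and Irs2 are shown because these are the genes whose iWAT values stood furthest below WT among the 8. The windows are the RefSeq bases before the start of each gene in build GRCm38.p6, all on the minus strand, written 5′ to 3′ at chr6:59024550-59024752, chr1:82291440-82291689 and chr8:11008930-11009179. The Fam13a window is shorter because bases inside the gene model of the deposited table were left out.
Fam13a: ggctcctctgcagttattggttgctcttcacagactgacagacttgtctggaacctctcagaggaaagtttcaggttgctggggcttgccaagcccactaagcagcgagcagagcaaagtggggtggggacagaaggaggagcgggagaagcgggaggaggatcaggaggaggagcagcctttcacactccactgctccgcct
Irs1: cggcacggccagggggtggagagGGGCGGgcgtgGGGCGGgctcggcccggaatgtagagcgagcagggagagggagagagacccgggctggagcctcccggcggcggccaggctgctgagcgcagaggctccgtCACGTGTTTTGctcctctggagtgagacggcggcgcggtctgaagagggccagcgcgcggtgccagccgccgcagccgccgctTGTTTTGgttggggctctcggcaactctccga
Irs2: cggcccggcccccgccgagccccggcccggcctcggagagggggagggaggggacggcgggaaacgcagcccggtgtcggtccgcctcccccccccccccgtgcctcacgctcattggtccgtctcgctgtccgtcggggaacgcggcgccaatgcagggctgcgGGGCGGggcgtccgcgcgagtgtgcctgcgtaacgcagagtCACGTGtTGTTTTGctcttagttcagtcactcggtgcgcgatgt
Capitals mark matches on either strand to the insulin response element TGTTTTG, the E-box CACGTG or the GC box GGGCGG. The Irs1 window held TGTTTTG 111 and 32 bases before the start, the first overlapping a CACGTG at 115, and the Irs2 window held TGTTTTG at 37, just after a CACGTG at 44. Of 32851 RefSeq windows of 250 bases, 5.56% held TGTTTTG, 6.02% held CACGTG, 32.7% held GGGCGG and 0.295% held both of the first 2. The Fam13a window held none of these letters, nor the FOXO motif TGTTTAC (3.17% of windows) or the TATA box TATAAA (12.4%). The Pik3r1 windows held TATAAA in one and GGGCGG in the other, and the first Akt2 window and the Foxo1 window held GGGCGG. These matches describe letters in a window and no binding was measured.

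The deposited values sum to nearly the same total in every library (from 999967 to 999996), so each is a share of the library corrected for gene length, and the number of reads behind it is unknown. Fabp1 in liver, the check of the labels, stood at 9166 to 12698 in WT and at 0.2 to 51.8 in LFABP-/-. In iWAT the library labelled LFABP-/- replicate 1 had Fabp1 at 196.1, against 0.2 to 0.9 in the other 4 LFABP-/- libraries and 1.9 to 23.9 in WT, together with a summed level of 6 hepatocyte markers (Fabp1 included) of 2143. In iBAT Fabp1 did not follow the labels, at 0.2 to 8.7 in WT and 0.4 to 21.2 in LFABP-/-. There LFABP-/- replicates 3, 4 and 5 held 21.2, 15 and 13.1, against 0.3, 0.6 and 0.2 in the livers of the same mice. The 5 adipocyte markers summed to between 13308 and 26090 in iWAT and between 4229 and 5642 in iBAT over both genotypes, the 5 brown adipocyte markers to 8269 to 10176 in WT and 9871 to 12721 in LFABP-/- iBAT, and in iWAT 8 macrophage markers to 941.4 to 2483 and 802.8 to 1534 and 5 endothelial markers to 377.7 to 579.1 and 399.8 to 507.2. The summed level of 19 lymphocyte markers in iWAT ran from 41.4 to 3723 in WT and from 73.5 to 2901 in LFABP-/-, high in WT replicates 3 and 4 and LFABP-/- replicates 2, 3 and 4. In iBAT 15 skeletal muscle markers summed to between 1781 and 46794 in WT and between 319.6 and 20117 in LFABP-/-, and the hepatocyte markers to 4 to 89.9 in WT and 164 to 1482 in LFABP-/-. In iWAT the muscle markers summed to 74.5 to 931.4 in WT and 97.1 to 6098.5 in LFABP-/-. The brown adipocyte markers there summed to 40.8 to 152.3 and 101.3 to 1596.8. The part of these other tissues in the results below was not tested beyond the values given beside each result.

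Fam13a was lower in LFABP-/- mice in both fat depots, by which it was chosen, and was not called in liver. In iWAT the WT libraries held 77.2, 101.1, 75.3, 131.3 and 170.7 and the LFABP-/- libraries 28.1, 41.3, 22, 29.1 and 45.4 (111 ± 40.3 and 33.2 ± 9.78, SD, n = 5 each). In iBAT they held 41, 41.5, 59.6, 81.5 and 55 in WT and 22.2, 19.1, 17.6, 24.8 and 24 in LFABP-/- (55.7 ± 16.6 and 21.5 ± 3.11). Every WT library stood above every LFABP-/- library of its depot. The ranges of the genotypes were apart for 3.11% of all genes in iWAT and 26.4% in iBAT. The Fam13a mean in LFABP-/- mice was 29.9% of WT in iWAT and 38.7% in iBAT. On the log2(value + 0.5) scale the differences were −1.71 (SE 0.27) and −1.32 (SE 0.18).

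**Figure D1:**
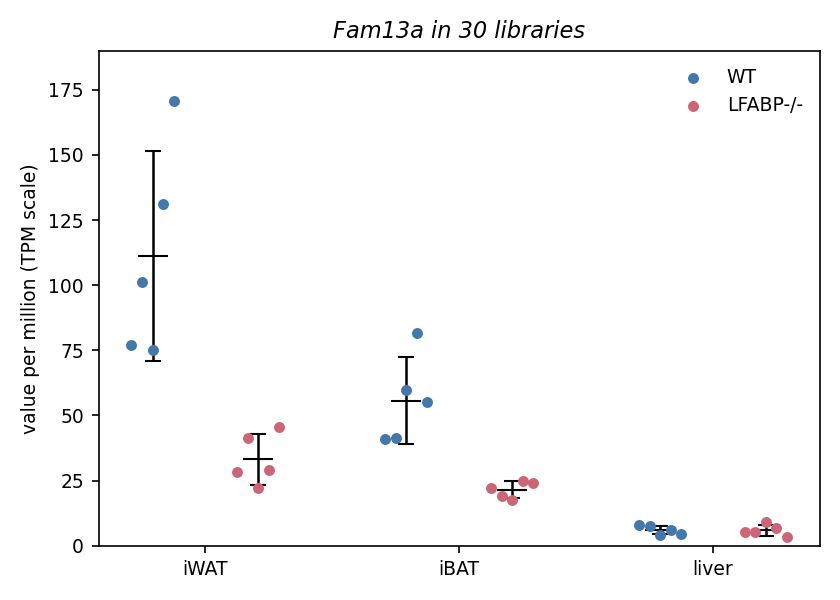
Fam13a value (y axis, TPM scale) in each of the 30 libraries by tissue and genotype, with the mean and SD of 5 libraries. The WT and LFABP-/- points do not overlap in iWAT or iBAT (as for 3.11% and 26.4% of all genes), whereas in liver all 10 lie between 3.4 and 9.2.

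Because the genotypes did not overlap in either depot, no choice of libraries could turn the sign of the difference in fat. With each library left out in turn the difference ran from −1.83 to −1.53 in iWAT and from −1.41 to −1.17 in iBAT. It was −1.66 without the library labelled LFABP-/- replicate 1 and −1.61 without the 5 lymphocyte-rich libraries in iWAT, and −1.15 without the 3 muscle-rich libraries (WT replicates 4 and 5, LFABP-/- replicate 5) in iBAT. The mice carry names starting with G30 (3 WT and 2 LFABP-/-) or G32 (2 WT and 3 LFABP-/-) in iBAT and liver, and the labels do not say what these mark. The iWAT names disagree, since all 5 WT iWAT libraries are named G30, so by the iWAT names no G32 comparison exists in that depot. With mice sorted by their iBAT and liver names, the difference within G30 mice was −1.29 in iWAT and −1.16 in iBAT, and within G32 mice −2.26 and −1.59. In such bulk samples fewer cells that express a gene and less RNA per cell cannot be told apart.

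In liver, the tissue the choice did not use, the WT values of Fam13a were 7.9, 7.6, 4.1, 5.9 and 4.6 and the LFABP-/- values 5.1, 5.1, 9.2, 6.8 and 3.4. The groups overlapped, and the difference was −0.05 (SE 0.24, 95% interval −0.58 to 0.49, limma adjusted p = 0.917). Among its relatives, Fam13b was called lower in liver, at 3.94 and 2.70 (−0.47, SE 0.14, limma adjusted p = 0.0652), as were 13.9% of all genes. That call was not examined with other scalings or with libraries left out. Fam13b was not called in iWAT (9.62 and 9.58) or iBAT (1.70 and 2.30). Fam13c had WT and LFABP-/- means of 4.28 and 4.20 in iWAT and of 1.12 and 1.38 in iBAT, neither called, and in liver no library exceeded 0.1, too low for the test.

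Fam13a lies at chr6:58932090-59024549 on the minus strand (GRCm38), 12.2 Mb from Fabp1 on the same chromosome. Over the 20 fat libraries, centred within each depot, the genes whose log2 values followed Fam13a most closely among 2716 abundant genes were Marchf6 (r = 0.88), Glul, which makes glutamine synthetase (0.86), Hsd11b1, which regenerates active glucocorticoid (0.85), Acss3 (0.84) and Slc27a1, a fatty acid transport protein (0.84). Slc27a1 averaged 531 and 216 in iWAT and 88.2 and 48.3 in iBAT of WT and LFABP-/- mice. Mrps23 (−0.89), Tstd3 (−0.86) and Mir6236 (−0.86) ran most opposite. These correlations share the libraries and the genotype difference that chose Fam13a and are given as a description.

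Of the 7 insulin signaling genes, 0 were called in iWAT, 1 in iBAT and 2 in liver, where a call is a limma adjusted p under 0.1 over all genes tested in that tissue. In iWAT 0.682% of the 14668 genes tested were called higher and 0.77% lower in LFABP-/-, and 4 of the 7 had an unadjusted p under 0.05 in limma, as did 10.4% of all genes. In iBAT, where 22.3% of all genes were called higher and 25.5% lower, the 7 gave 0 higher and 1 lower, and in liver, at 3.08% and 13.9%, they gave 1 of each. Unadjusted p values under 0.05 came to 1 of the 7 in iBAT and 3 in liver, beside 48.3% and 27.9% of all genes. The ranges of the genotypes were apart for 0 of the 7 in iWAT and iBAT (3.11% and 26.4% of all genes) and for 1 in liver (10%). All 7 passed the filter on low values in each tissue. Their median difference was −0.02 in iWAT, −0.03 in iBAT and −0.11 in liver, beside 0.05, −0.03 and −0.10 over all genes.

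Insr, the receptor itself, fell in liver. The WT livers held 26.1, 27.6, 24.5, 23.2 and 20.7 and the LFABP-/- livers 17.1, 17.3, 19.8, 18.5 and 15.1. No WT liver was as low as any LFABP-/- liver, and the mean was 71.9% of WT (24.4 ± 2.66 and 17.6 ± 1.75, −0.46, SE 0.10, limma adjusted p = 0.0203; two-sided exact permutation p = 0.0079, the smallest that 252 assignments can give). It was called with any library left out (adjusted p from 0.0154 to 0.0602) and was −0.35 after median-ratio scaling, which raised the median liver difference of all genes by 0.111 and turned the calls over all genes from 358 higher and 1611 lower into 1158 and 834. Rescaled without the mitochondrial and most abundant genes it was −0.42. The mitochondrial share of the values (12.1% to 15.1% in WT and 16.9% to 18.1% in LFABP-/-) also differed between the liver groups without overlap. So did the 6 hepatocyte markers (105713 to 130133 and 69004 to 88694), which include the deleted gene Fabp1, with means of 11744.5 and 13.32. Their part in this result was not tested beyond that rescaling. Within G30 and G32 mice the Insr difference was −0.58 and −0.30.

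In iWAT Insr stood at 32, 37, 33, 31.1 and 37.7 in WT and 24.6, 28.8, 25.8, 24.7 and 31.5 in LFABP-/-, so that only LFABP-/- replicate 5 reached the lowest WT value. The difference of −0.33 (SE 0.10) was not called (limma adjusted p = 0.215; exact permutation p = 0.0159), but it was in 1 fit of all 30 libraries (adjusted p = 0.0579) and with the lymphocyte markers as a covariate (0.0911). Over all iWAT genes the 30-library fit called 414 higher and 391 lower of 13925. The covariate fit called 532 and 757 of 14668, where the main fit called 100 and 113. In iBAT the Insr means were 14.9 ± 1.25 and 15.0 ± 2.24, a difference of 0.00 with a 95% interval of −0.22 to 0.23 (limma adjusted p = 0.994).

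The 2 docking proteins gave no call in any tissue fitted alone. In 1 fit of all 30 libraries 2 members were called lower in iWAT, Irs1 along with Insr, as were 391 of all 13925 genes. Irs1 in iWAT was 14.4, 23.6, 16.7, 14.7 and 22.3 in WT and 10.2, 6.9, 8.8, 7.9 and 16.8 in LFABP-/- mice. Only LFABP-/- replicate 5 reached into the WT range. The difference of −0.86 (SE 0.24, 95% interval −1.39 to −0.33) had an adjusted p of 0.173 in limma and an exact permutation p of 0.0317. Without that library it was −1.06 (adjusted p = 0.0591), with the lymphocyte covariate −0.73 (0.0538), and without the 5 lymphocyte-rich libraries −0.57 (0.504). Irs1 was low elsewhere, with means of 4.50 and 4.46 in iBAT and 4.22 and 4.00 in liver.

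Irs2, the docking protein that carries much of the insulin signal in liver, varied widely within groups. In iWAT it was 42.7, 72.1, 53.3, 41.2 and 86.9 in WT and 41.4, 55.5, 33.9, 35.3 and 27.8 in LFABP-/- (−0.58, SE 0.24, limma adjusted p = 0.424). In iBAT the order was the other way, at 8.6, 12.1, 16.2, 14.1 and 25.9 in WT and 29.4, 25.3, 19.5, 25.8 and 11.4 in LFABP-/- (0.54, SE 0.31, adjusted p = 0.190). Replicate 5 held the highest WT value and the lowest LFABP-/- value there, and neither was flagged as far from its group. The iBAT difference was 0.75 without WT replicate 5 (adjusted p = 0.0600), 0.76 without LFABP-/- replicate 5 (0.0481) and 1.02 without the 3 muscle-rich libraries (0.0120). In liver the means were 25.1 ± 4.87 and 18.5 ± 7.56 (−0.50, SE 0.25, adjusted p = 0.228), and without LFABP-/- replicate 1 the difference was −0.69 (0.0987). Within G30 and G32 mice the Irs2 difference was 1.16 and −0.09 in iBAT and 0.10 and −0.97 in liver.

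Pik3r1, the regulatory subunit, was the one member called in opposite directions in 2 tissues. In iBAT it fell, with 9, 11.9, 18.8, 15.2 and 18.1 in WT and 9.3, 4.2, 5.5, 6.9 and 12.5 in LFABP-/-. The ranges overlapped through WT replicates 1 and 2 and LFABP-/- replicates 1 and 5. The mean in LFABP-/- mice was 7.68 ± 3.29 against 14.6 ± 4.15 (−0.93, SE 0.29, limma adjusted p = 0.0267; exact permutation p = 0.0397). It stayed called with any library left out (0.00824 to 0.0640), with the skeletal muscle markers as a covariate (−0.81, 0.0450) and without the 3 muscle-rich libraries (−0.97, 0.0461), and was −0.95 and −1.04 within G30 and G32 mice.

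In liver Pik3r1 was higher, at 17.2, 15.2, 18.7, 17.3 and 14.5 in WT and 25.8, 17.7, 19.6, 20.8 and 22 in LFABP-/- (0.34, SE 0.11, limma adjusted p = 0.0723). LFABP-/- replicate 2 alone lay inside the WT range. The call was lost in 5 of the 10 fits that left out 1 library (WT replicates 2 and 5, LFABP-/- replicates 1, 4 and 5; adjusted p from 0.115 to 0.174) and in 1 fit of all 30 libraries (0.539). The difference within G30 and G32 mice was 0.32 and 0.38. In iWAT the means were 67.8 ± 19.6 and 80.0 ± 38.1, and LFABP-/- replicate 5 held the highest value of all, 143.6 (0.16, SE 0.30, adjusted p = 0.956).

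**Figure D2:**
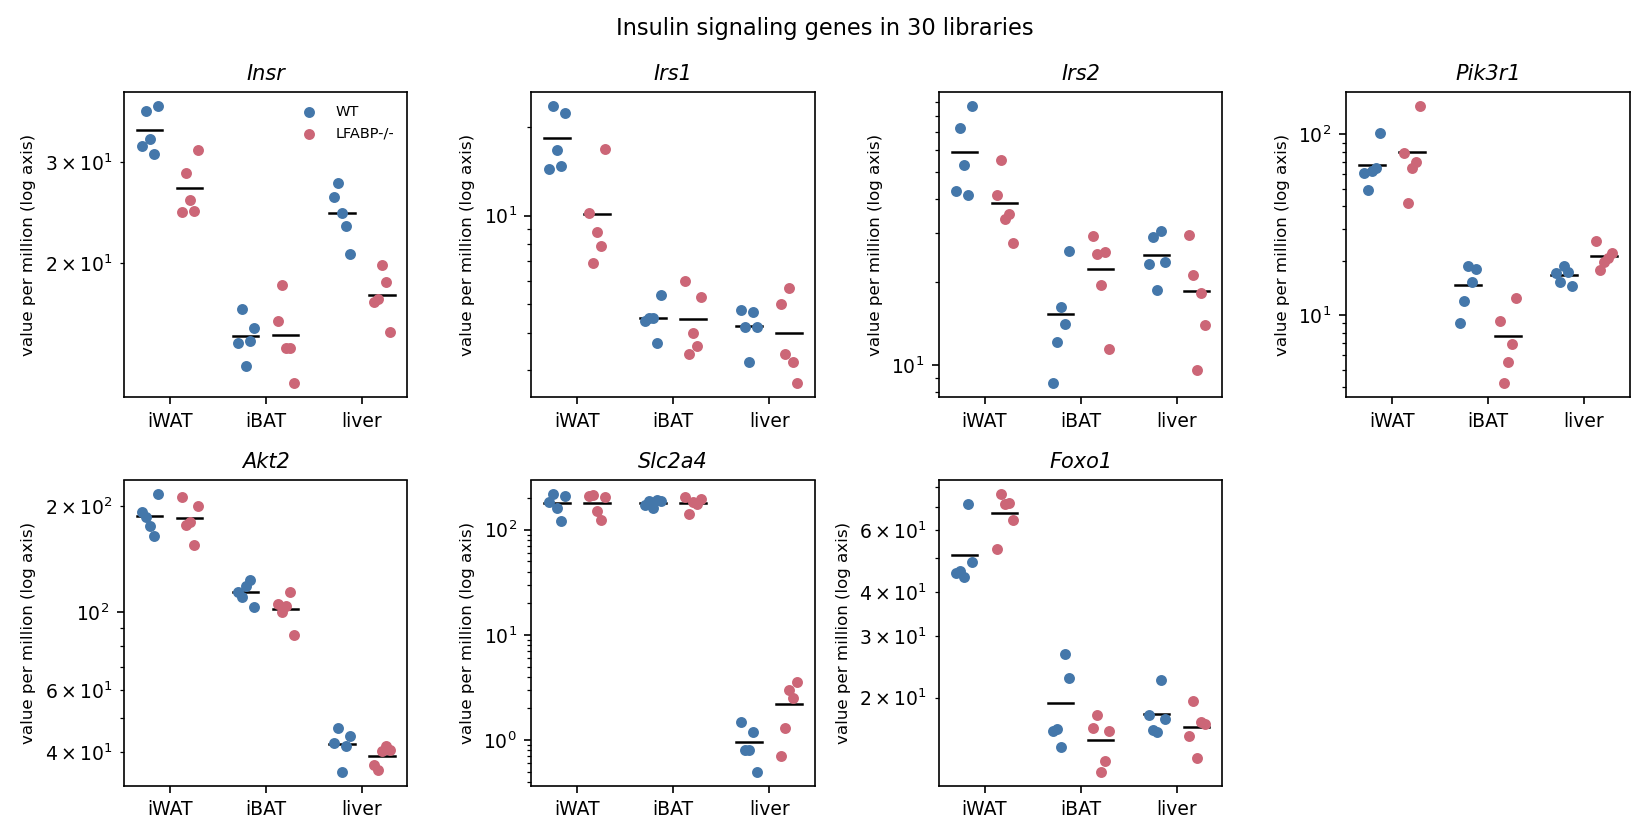
Values (TPM scale, log y axis, 1 panel per gene) of the 7 insulin signaling genes in 30 libraries by tissue and genotype, with a line at each group mean. The 2 genotypes are apart in 1 panel and tissue, Insr in liver, and Slc2a4 drops from 120.8 or more in fat to 3.6 or less in liver.

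Akt2 and Slc2a4, the kinase that carries the signal to glucose uptake and the transporter it acts on, were the most abundant members in fat. Neither was called in any tissue fitted alone with all its libraries. Akt2 averaged 187 ± 19.4 and 185 ± 22.3 in iWAT (−0.02, 95% interval −0.26 to 0.22) and 42.1 ± 4.38 and 39.0 ± 2.62 in liver (−0.11, −0.30 to 0.09). In iBAT it was 114.5, 110.3, 119.2, 123.7 and 103.8 in WT and 105.4, 100.5, 104.2, 114 and 86.1 in LFABP-/- (−0.17, SE 0.08, limma adjusted p = 0.121). That difference was called without WT replicate 5 (−0.20, 0.0785), without LFABP-/- replicate 4 (−0.21, 0.0679) and with the skeletal muscle covariate (−0.21, 0.0416).

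Slc2a4 stood at 179 ± 39.1 and 181 ± 41.0 in iWAT and at 180 ± 12.8 and 180 ± 24.7 in iBAT, with differences of 0.02 (95% interval −0.43 to 0.47) and −0.01 (−0.23 to 0.21). Its lowest iWAT values in both genotypes, 120.8 and 124.6, were those of replicate 4, 2 libraries rich in lymphocyte markers. By mean log2 value, WT replicate 4 was also the iWAT library lowest in adipocyte markers. LFABP-/- replicate 4 was the one highest in skeletal muscle markers. In liver, where GLUT4 is not the main glucose transporter, it was 1.5, 0.8, 0.8, 1.2 and 0.5 in WT and 0.7, 1.3, 3, 2.5 and 3.6 in LFABP-/-. The 0.80 difference (SE 0.33, limma adjusted p = 0.139) was not called with all 10 libraries and was 1.06 (0.0520) without LFABP-/- replicate 1. In 1 fit of all 30 libraries Slc2a4 was the 1 member called higher in liver, as were 292 of all 13925 genes. The difference was −0.03 within G30 mice and 1.43 within G32 mice.

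Foxo1, the transcription factor that insulin holds back, was also called in no tissue. In iWAT the WT libraries held 45.5, 46.1, 44.1, 71.4 and 48.9 and the LFABP-/- libraries 53.1, 76, 71.2, 71.6 and 64.4. WT replicate 4 was the one WT library inside the LFABP-/- range. The difference was 0.40 (SE 0.15, limma adjusted p = 0.335; exact permutation p = 0.0397), and without that library 0.53 (adjusted p = 0.0694). In iBAT the means were 19.3 ± 5.23 and 15.2 ± 2.31 (−0.31, SE 0.17, adjusted p = 0.180), and the difference was 0.13 within G30 mice and −0.82 within G32 mice. Liver held 17.98 ± 2.60 and 16.5 ± 2.22 (−0.12, 95% interval −0.37 to 0.13).

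**Figure D3:**
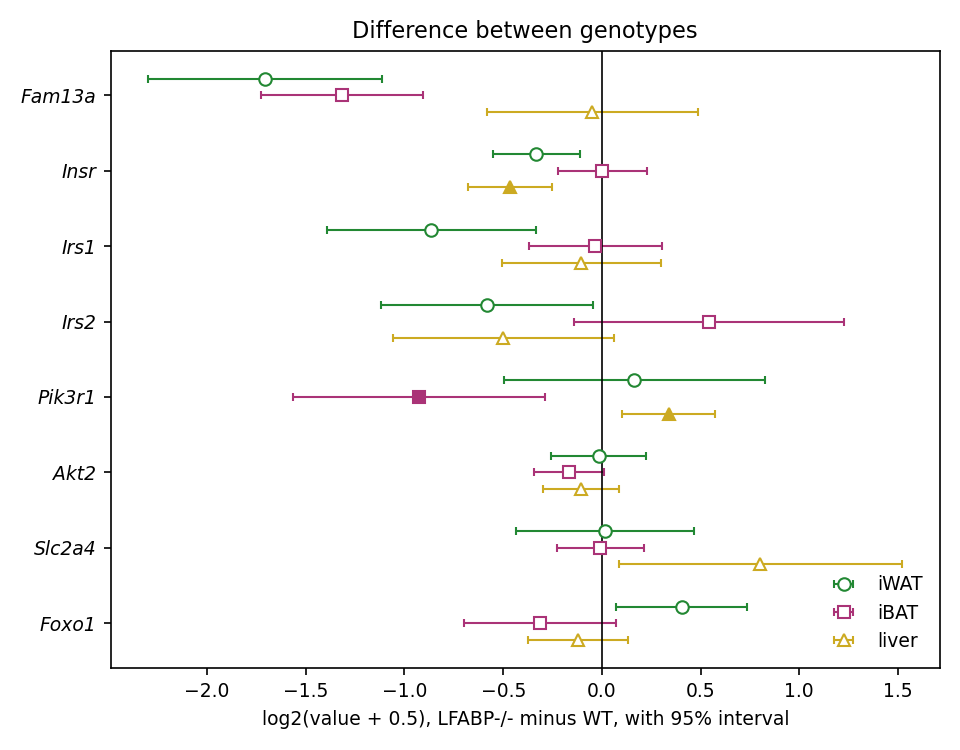
Difference between LFABP-/- and WT (x axis, log2(value + 0.5), with the 95% interval) for each member in iWAT (circles), iBAT (squares) and liver (triangles), filled where limma called it. The filled symbols are Insr and Pik3r1 in liver and Pik3r1 in iBAT, and Fam13a in fat, which was not tested, lies furthest to the left.

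Whether the genotype difference itself differed between tissues was tested for the 7 genes in 1 fit of all 30 libraries. Between iBAT and liver it differed for Insr (0.46, SE 0.14, limma adjusted p = 0.0291) and Pik3r1 (−1.27, SE 0.38, adjusted p = 0.0262), 2 of 7 where 16.7% of all genes differed. Between iWAT and iBAT it differed for Irs1 (−0.83, 0.0821), Irs2 (−1.12, 0.0999), Pik3r1 (1.09, 0.0756) and Foxo1 (0.72, 0.0476), 4 of 7 where 11.9% of all genes did. Between the fat depots 0 were called without LFABP-/- mouse 3 or 4, 1 without WT mouse 2 or 3, 2 without WT mouse 1 or 5 or LFABP-/- mouse 1 or 2, and 5 without LFABP-/- mouse 5. Between iBAT and liver Insr was not called without LFABP-/- mouse 2 (0.39, adjusted p = 0.106). Between iWAT and liver 0 of the 7 were called (3.6% of all genes), with 3 at an unadjusted p under 0.05 in limma, and 2 were called without WT mouse 4 and 1 without LFABP-/- mouse 1 or 5. For Fam13a the iWAT difference minus that in liver was −1.66 and the iBAT difference minus that in liver −1.27, given with no test.

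On the deposited scale all 8 members had their highest WT mean in a fat depot, 7 of them in iWAT and Slc2a4 in iBAT by a margin within its spread. Fam13a was 1.99 times as high in iWAT as in iBAT and 18.5 times as high as in liver. Slc2a4 was 186 times as high in iWAT as in liver, and Pik3r1 4.64 times as high in iWAT as in iBAT. Mitochondrially encoded genes took 54.4% to 60.1% of the values in WT iBAT and 12.1% to 20.6% in the other WT tissues, and the median gene was 1.35 lower in iBAT than in iWAT and 1.17 lower in liver than in iWAT on the log2 scale. Differences between tissues are therefore read against those medians.

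The WT fat values of Fam13a were among those that chose it, so its differences between tissues are given as a description and the counts are over the other 7 members. Against iWAT, iBAT was called lower for 6 of the 7 and higher for 0 (84.6% and 7.29% of all genes), all but Slc2a4. Relative to the median of −1.35, Slc2a4 (0.03), Akt2 (−0.71) and Fam13a (−0.96) lay above it and Pik3r1 (−2.18), Irs2 (−1.94) and Irs1 (−1.89) below it. After median-ratio scaling Fam13a stood at 0.44 and Insr at 0.21, without a call for Insr, and Akt2 (0.70) and Slc2a4 (1.44) were called higher in iBAT. Liver was called lower than iWAT for all 7 (77.6% of all genes lower, 13.7% higher), with Slc2a4 (−6.95) furthest below the median of −1.17 and Insr (−0.48) furthest above it, and Fam13a stood at −4.07. Insr was called higher in liver after median-ratio scaling (0.78). Between liver and iBAT, 2 members were called higher in liver, Insr (0.70) and Irs2 (0.76, not called without WT mouse 1 or 2), and 2 lower, Akt2 (−1.43) and Slc2a4 (−6.99), where 40.1% of all genes were higher and 33.6% lower, and Fam13a stood at −3.10. Insr (−0.01) and Irs2 (0.06) were not called once the libraries were rescaled without the mitochondrial and most abundant genes.

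**Figure D4:**
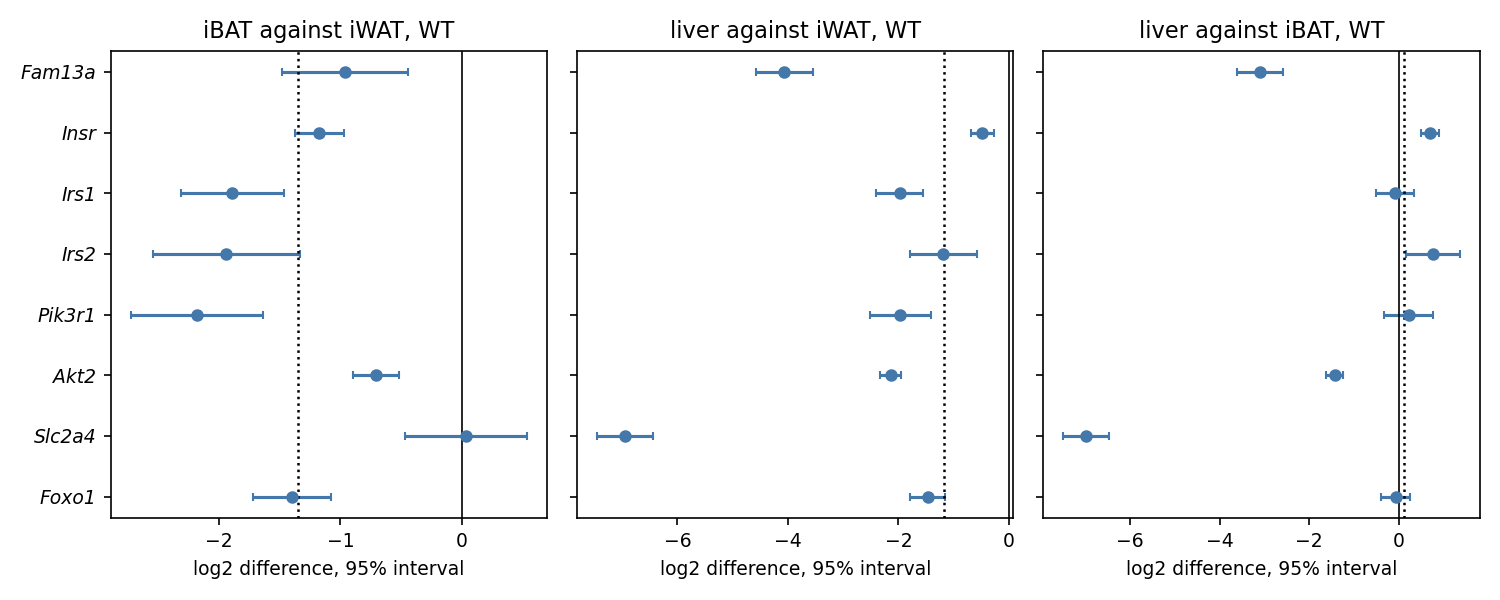
Log2 difference between tissues in WT mice (x axis, with the 95% interval) for each member, 1 panel per pair of tissues, with a dotted line at the median of all genes. Slc2a4 and Fam13a lie far left of the dotted line in both liver panels, at −6.95 and −4.07 against iWAT.

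Over the 6 groups Fam13a was ordered from WT iWAT (111) through WT iBAT (55.7), LFABP-/- iWAT (33.2) and LFABP-/- iBAT (21.5) to liver (6.02 in WT and 5.92 in LFABP-/-). Neighbours in this order overlapped in range, apart from LFABP-/- iBAT and WT liver. The Fam13a level of LFABP-/- iWAT thus came to lie below that of WT iBAT in mean, a comparison across depots that carries the scale difference given above.

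The surrounding pathway was followed in a list of 84 further genes, from receptors to genes regulated by insulin or FOXO1. In iWAT 1 of the 79 tested was called, 1.27% beside 1.45% of all genes, with 6 (7.59%, beside 10.4% of all genes) at an unadjusted p under 0.05: Trib1, a pseudokinase of the Tribbles family, rose from 18.6 ± 2.75 to 34.9 ± 5.39 (0.89, SE 0.14, limma adjusted p = 0.0218). All 5 LFABP-/- libraries (27.6 to 41) stood above all 5 WT libraries (15.8 to 23.1), and ranges were apart for 3.11% of all genes. After median-ratio scaling the list gave 0 calls, so the Trib1 call was lost. That scaling called 56 higher and 45 lower of all 14587 genes tested. Without the 5 lymphocyte-rich libraries, which left 3 WT and 2 LFABP-/- libraries, the list gave 0 calls. Of all 13880 genes tested in that fit, 5 were called higher and 1 lower.

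In iBAT 19 of 77 were called higher and 22 lower, 53.2% beside 22.3% and 25.5% of all genes. Among inhibitors and phosphatases 6 rose and 4 fell of 13, with Trib3, a pseudokinase that binds AKT, at 5.14 and 16.6 (1.52, SE 0.22) and Trib1 at 16.04 and 35.98 (1.12, SE 0.16) in WT and LFABP-/-. Of the genes regulated by insulin or FOXO1, 5 rose and 2 fell of 11, among them Ppargc1a, a coactivator of mitochondrial genes (14.7 and 56), and Klf15, a transcription factor of amino acid and glucose metabolism (39.96 and 8.70). The 3 largest rises of the whole list were Ahsg, G6pc and Igfbp1, which liver makes in quantity and which were picked out here after their values were seen. Ahsg, listed among the inhibitors, averaged 2.36 and 57.7 in WT and LFABP-/- iBAT (4.32, SE 0.80), G6pc 0.22 and 6 (2.74, SE 0.62) and Igfbp1 0.12 and 3.66 (2.34, SE 0.56), while the 6 hepatocyte markers ran from 4 to 89.9 in WT and from 164 to 1482 in LFABP-/- iBAT. The part of that hepatocyte signal in these calls was not tested. Of the other PI3-kinase genes and PDK1, 1 rose and 2 fell of 6: Pdpk1, the kinase that activates AKT, stood at 9.62 and 16.4, and Pik3r2, which makes the other p85 subunit, at 12.3 and 8.10 (−0.58, SE 0.07). Igf1r (1.52 and 0.78) and Gab1 (6.06 and 3.26) were lower, with 2 higher and 4 lower of 13 receptors and adaptors. Glucose transporters and GLUT4 traffic genes gave 0 higher and 5 lower of 13, Akt substrates 0 and 3 of 7, and the Akt and mTOR complexes 5 and 2 of 14.

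In liver 1 of 76 was called higher and 21 lower, 28.9% beside 3.08% and 13.9% of all genes. G6pc, the last step of glucose release, rose from 412 ± 147 to 663 ± 115 (0.74, SE 0.22, limma adjusted p = 0.0565). No gene of the list was called higher without WT replicate 1, WT replicate 2 or LFABP-/- replicate 4, or in 1 fit of all 30 libraries, so the G6pc call was lost in each. Sesn3 (5.80 and 3.82), Phlpp1, a phosphatase of AKT (11.5 and 7.46), Gab1 (10.2 and 6.82) and Pdpk1 (9.40 and 6.64) were the lower genes with the smallest p, and Pdpk1 thus moved in opposite directions in iBAT and liver. Calls lower came to 3 of 10 receptors and adaptors, 2 of 5 PI3-kinase genes and PDK1, 6 of 14 of the Akt and mTOR complexes, 2 of 7 Akt substrates, 6 of 15 inhibitors and phosphatases, 1 of 14 glucose transporters and GLUT4 traffic genes and 1 of 11 genes regulated by insulin or FOXO1. The list's median difference was −0.20 beside −0.10 for all genes. After median-ratio scaling 2 genes were called higher and 10 lower, beside 1158 and 834 of the 11598 genes tested. The total of 22 came to 6 without WT replicate 2, where 111 genes were called higher and 635 lower of 11601. It came to 13 without LFABP-/- replicate 4 (145 and 953 of 11626 genes) or 5 (171 and 883 of 11643).

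**Figure D5:**
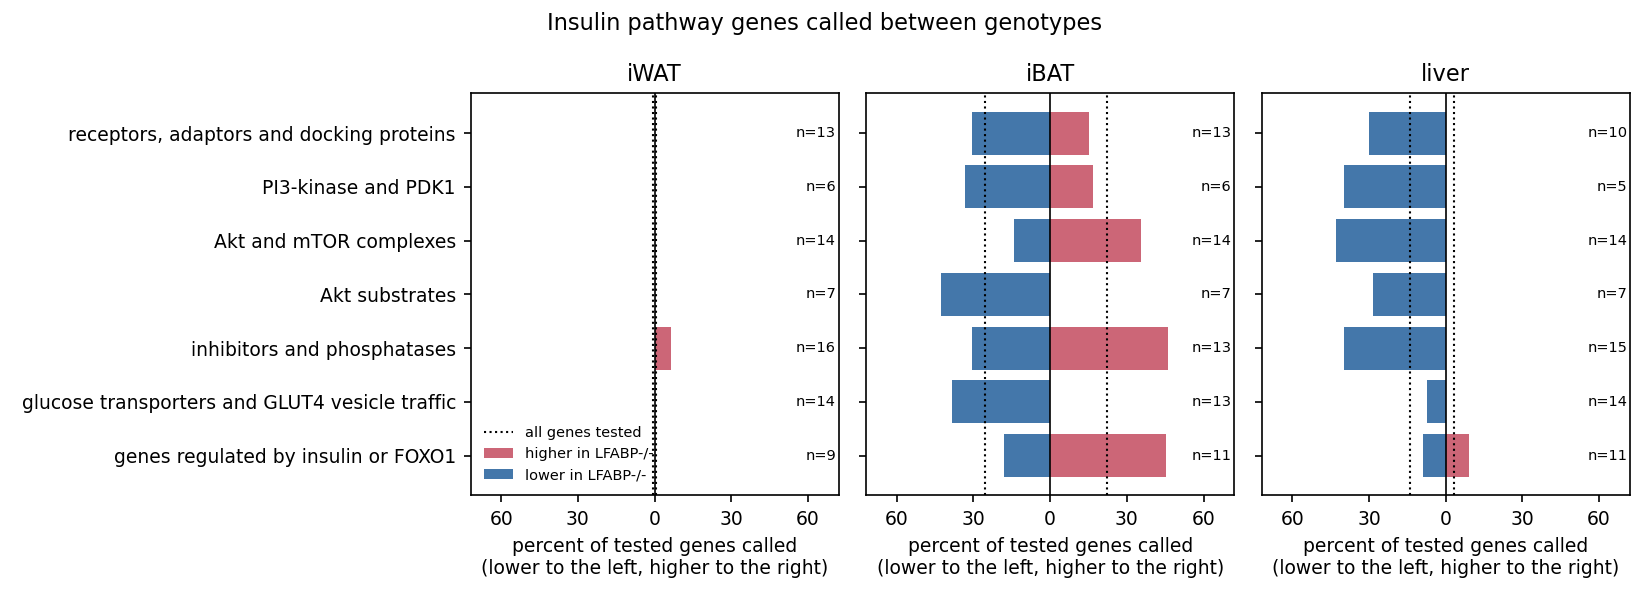
Percent of tested genes called lower (left) and higher (right) in LFABP-/- in each group of the 84 pathway genes, by tissue, with dotted lines at the percent over all genes tested and the number tested at the right. In liver the bars lie to the left of the axis apart from G6pc, 1 of 11 genes regulated by insulin or FOXO1, and in iWAT the only bar is Trib1.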

How the data were processed

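Values of 30 RNA sequencing libraries (10 mice, 3 tissues) were used, made from poly(A)-selected RNA by a protocol that is stated for iWAT. The authors aligned reads to GRCm38 in CLC Genomics Workbench and deposited 1 value per gene and library; the file headers call these RPKM, but the deposited values of every library sum to nearly the same total, as TPM do, so they were treated as TPM. Such values keep no depth, and the number of reads behind each is unknown.

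Values were taken as log2(value + 0.5), for genes with a mean of at least 1, and tested in R 4.3.3 with limma 3.58.1 and statmod 1.5.0 (intensity trend, two-sided, Benjamini-Hochberg over all genes tested, called at an adjusted p under 0.1). Genotypes were compared within each tissue, and tissues and differences between tissues in 1 fit of 30 libraries in which each mouse was a random block. The scripts were tested on simulated data. Single genes also had an exact permutation test of 252 assignments. Replicates are separate mice, so p-values measure the spread between mice; replicate numbers pair no WT with any LFABP-/- mouse. Named genes were the 8 members, Fam13b, Fam13c, Fabp1, up to 4 called pathway genes per direction of smallest p in each tissue, and the genes most and least correlated with Fam13a in fat. The members and lists were chosen with earlier results of these data known. Marker lists covered adipocytes, brown adipocytes, hepatocytes, lymphocytes, skeletal muscle, macrophages and endothelial cells. Alternatives changed the pseudocount, filter, scaling, trend, block, covariates, threshold and libraries.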

Additional observations from a re-analysis of the deposited data

Results flagged for a closer look

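Of 48 groups of 5 libraries (8 members in 6 groups), 1 held a library far from the others. Foxo1 in WT iWAT was highest in replicate 4, at 71.4 with the nearest library at 48.9. The gap was 0.824 of the range of the group, and chance alone sets a library apart in about 1 group in 20. That library was also one of the 5 iWAT libraries rich in lymphocyte markers, whose part in the value was not tested.

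The genotype difference (LFABP-/- minus WT, log2 scale) differed between tissues in 6 of 21 tests of the 7 insulin signaling genes, by limma with adjusted p from 0.0262 to 0.0999. Relative to liver, the iBAT difference was 0.46 higher for Insr and lay at −1.27 for Pik3r1. Relative to iBAT, the iWAT difference lay at −0.83 for Irs1, −1.12 for Irs2, 1.09 for Pik3r1 and 0.72 for Foxo1. The same mice gave the tissues compared, and tissue and library scale change together.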

How the results depend on the processing

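Apart from single libraries left out, 127 of 152 values that answer a comparison were labelled the same as in the main fit. For a count this meant a similar total, whichever way its genes moved. The iBAT pathway count of 41 was labelled the same at 32, in 1 fit of all 30 libraries. Members between WT liver and iBAT, 2 higher and 3 lower, were labelled the same at 0 and 5 after rescaling without mitochondrial and abundant genes. For Fam13a in fat, whose values chose it, it meant the same sign and a move within the spread of its groups. Changing the filter, the trend or the replicate block leaves a log2 difference unchanged. Under those settings Fam13a in fat could not be labelled otherwise, and such values are part of the 127. Values are counts of called genes or log2 differences, and the causes of changes were not tested. The 5 lymphocyte-rich iWAT libraries, the 3 muscle-rich iBAT libraries and the iBAT muscle covariate were chosen after seeing the data.

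With median-ratio scaling the pathway count was 0 in iWAT and 12 in liver, 1 member differed between iBAT and liver, and 4 members were called between iBAT and iWAT in WT. Over all genes that scaling called 56 higher and 45 lower of 14587 in iWAT, and 1158 and 834 of 11598 in liver. The sign turned for Akt2 (0.0087), Fam13a (0.059) and Irs1 (0.00082) in liver, Irs1 (0.013) and Slc2a4 (0.042) in iBAT, Slc2a4 in iWAT (−0.022), the iWAT minus liver effect of Akt2 (−0.083) and Insr (−0.032), the iWAT minus iBAT effect of Slc2a4 (−0.096), and in WT for Akt2 (0.70), Fam13a (0.44) and Insr (0.21) in iBAT against iWAT and Insr (0.78) and Irs2 (0.080) in liver against iWAT. Rescaled without mitochondrial and abundant genes, 2 members were called in iBAT, and the sign turned for Insr in iBAT (−0.020), Slc2a4 in iWAT (−0.018), Irs1 in iBAT minus liver (−0.0049), Akt2 in WT iBAT against iWAT (0.19), and Insr (−0.0054) and Pik3r1 (−0.48) in WT liver against iBAT.

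With a filter at a mean of 20 the pathway counts were 19 in iBAT and 9 in liver and the member counts 0 and 1, since fewer genes were tested. With no filter 1 member was called in liver and 1 differed between iWAT and iBAT. At an adjusted p under 0.05 these were 1 and 1, and the liver pathway count 12. With the replicate block, although the numbers pair no mice, the liver counts were 14 (pathway) and 1 (members) and the iBAT member count 2. In 1 fit of all 30 libraries the iWAT counts were 4 and 2, with 414 higher and 391 lower of 13925 genes called. With the lymphocyte covariate they were 8 and 2, with 532 and 757 of 14668 genes called and Akt2 at 0.047. Without the lymphocyte-rich libraries the pathway count was 0, with 5 higher and 1 lower of 13880 genes called, and Akt2 was 0.062. With the muscle covariate in iWAT Akt2 was 0.043. In iBAT the muscle covariate gave 2 members, Insr −0.0055, Irs1 0.0080 and Slc2a4 0.014, and leaving out muscle-rich libraries 2 members and Slc2a4 0.010.

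Leaving out 1 library or mouse, counts of members ran from 0 to 1 in iWAT, 1 to 3 in iBAT, 1 to 3 in liver, 1 to 3 for iBAT against liver, 0 to 5 for iWAT against iBAT and 0 to 2 for iWAT against liver, and the liver pathway count from 6 to 25. Signs turned in iWAT for Akt2 (−0.069 to 0.044), Pik3r1 (−0.076 to 0.37) and Slc2a4 (−0.12 to 0.14), in iBAT for Insr (−0.072 to 0.066), Irs1 (−0.14 to 0.047) and Slc2a4 (−0.054 to 0.078), in liver for Fam13a (−0.21 to 0.12) and Irs1 (−0.23 to 0.0082), in iBAT minus liver for Akt2 (−0.11 to 0.019) and Irs1 (−0.10 to 0.23), in iWAT minus liver for Irs2 (−0.27 to 0.086) and Pik3r1 (−0.40 to 0.024), in iWAT minus iBAT for Slc2a4 (−0.13 to 0.14), and in WT for Foxo1 (−0.12 to 0.0073) and Irs1 (−0.18 to 0.0010) in liver against iBAT and Slc2a4 (−0.12 to 0.098) in iBAT against iWAT. The unknown depth limits low values such as Slc2a4 in liver.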
